A study of Homo sapiens with 6 samples.

Results

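The genes described here are 10 nucleic acid sensors and their adaptors: RIGI, IFIH1, TLR3, MAVS, STING1, CGAS, IRF3, IRF7, EIF2AK2 and TICAM1. They were taken by name, under the older names DDX58, TMEM173 and MB21D1 where needed, and all 10 were found among the 58174 genes of the expression table. Their RNA was measured in cells labelled AGS, a human gastric adenocarcinoma line, in 3 control libraries titled si-NC, for a non-targeting siRNA, and 3 titled si-FTO, for an siRNA against FTO. FTO is a demethylase that removes N6-methyladenosine from RNA, and its depletion was meant to show which transcripts depend on it. According to the methods, siRNA duplexes were transfected by lipofection, with a single sequence listed against FTO and control oligonucleotides in its place for si-NC. The methods also mention lentivirus for making stable lines, and their sequencing section does not name the means of depletion. The time between transfection and harvest is not given in the sources used here. In the sample labels the genotype reads wild type in the control group and FTO-/- in the depleted group, and whether knockdown or knockout is the right description cannot be told from the values. Markers of cell identity, given after the sensors, differed so widely between the groups that they may not be the same line, which was not tested and bears on every ratio of si-FTO over si-NC.

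Levels are given as TPM, each transcript's share of all transcripts after correction for length, and only the authors' mean of each group was used. The spread between libraries and the read depth are therefore unknown, no difference could be set against replicate error, and no test was run. Throughout, a log2 ratio is the mean TPM in si-FTO over the mean TPM in si-NC after 1 TPM was added to each, which understates the differences of low genes. A gene was compared when its mean was at least 0.5 TPM in at least 1 group, which left 20493 genes, and it was counted as higher or lower past the fold when the log2 ratio was at least 1 in size. FTO itself had a mean of 33.1 TPM in si-NC against 7.27 TPM in si-FTO, and its log2 ratio was -2.05. The depleted gene was thus lower in the group labelled as depleted, with part of its RNA still present.

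Cells recognise foreign or misplaced nucleic acids through several arms that meet at the same transcription factors. In the cytosol, RIG-I (RIGI) and MDA5 (IFIH1) bind RNA duplexes and signal through MAVS on the outer mitochondrial membrane, while cGAS (CGAS) binds DNA and makes a cyclic dinucleotide that activates STING (STING1) on the endoplasmic reticulum. In endosomes, TLR3 binds RNA duplexes and signals through TRIF (TICAM1). The arms converge on the kinase TBK1 and on IRF3 and IRF7, which switch on interferon genes. PKR (EIF2AK2) acts apart from them, since it phosphorylates eIF2 alpha when bound to duplex RNA and so slows translation. Several of these genes are themselves induced by interferon in epithelial cells.

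Of the 10 genes, 5 were higher in si-FTO past the fold, namely CGAS, IFIH1, TICAM1, STING1 and TLR3, and 0 were lower past it. Among all genes compared, 11.4% were higher past the fold and 17.0% were lower, and with median-ratio scaling these shares were 13.6% and 14.1%. The remaining 5 genes lay within the fold, with RIGI, MAVS, EIF2AK2 and IRF7 on the higher side and IRF3 on the lower side. The median log2 ratio of the 10 genes was 1.13, against -0.20 over all genes compared. With a pseudocount of 0.1 the median of the 10 was 1.74, and at a minimum of 5 TPM, where 7 were compared, 2.21. All 10 genes reached 0.5 TPM in at least 1 group, but TLR3 and CGAS did so only in si-FTO and could enter the comparison only as higher genes. Nothing was tested here, so these counts describe this pair of means. In bulk RNA, fewer cells of a type and less RNA per cell cannot be told apart.

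**Figure D1:**
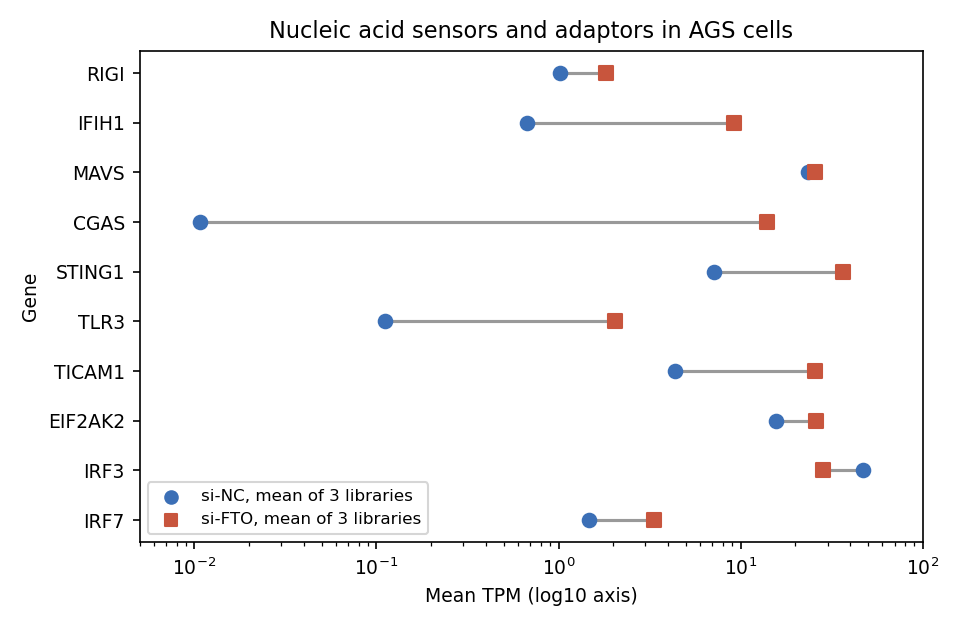
Mean TPM of each of the 10 genes on a log10 axis, with circles for si-NC and squares for si-FTO, each the authors' mean of 3 libraries without error bars. The gap is widest for CGAS, from 0.0107 to 14.0 TPM, and IRF3 is the gene whose square lies to the left of its circle.

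The promoters of some of these genes hold letters that match sites of factors activated by interferon, and binding was not examined. Promoter sequences of 6 of the 10 genes were found in the RefSeq table (GRCh38.p14), from 250 bases before to 50 bases after the start site, and those of CGAS, STING1, IRF3 and IRF7 were not found in it. Both strands were searched for GAAANNGAAA, the core of the interferon-stimulated response element (ISRE), and for TTCNNNGAA, the core of the STAT site (GAS). The following 5 are shown because they set the RNA sensors and the TLR3 arm side by side. Capitals mark ISRE or GAS matches, and each runs 5′ to 3′ on the strand of its gene. They lie at chr2:162318635-162318934 (minus strand), chr4:186068906-186069205 (plus strand), chr2:37156931-37157230 (minus strand), chr9:32526147-32526446 (minus strand) and chr19:4831663-4831962 (minus strand).
IFIH1: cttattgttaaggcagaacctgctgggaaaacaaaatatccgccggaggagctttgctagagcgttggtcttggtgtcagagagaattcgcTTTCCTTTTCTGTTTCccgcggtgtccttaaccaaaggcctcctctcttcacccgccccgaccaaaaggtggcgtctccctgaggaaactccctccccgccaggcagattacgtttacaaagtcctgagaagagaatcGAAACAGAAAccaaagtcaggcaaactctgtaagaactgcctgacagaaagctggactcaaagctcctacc
TLR3: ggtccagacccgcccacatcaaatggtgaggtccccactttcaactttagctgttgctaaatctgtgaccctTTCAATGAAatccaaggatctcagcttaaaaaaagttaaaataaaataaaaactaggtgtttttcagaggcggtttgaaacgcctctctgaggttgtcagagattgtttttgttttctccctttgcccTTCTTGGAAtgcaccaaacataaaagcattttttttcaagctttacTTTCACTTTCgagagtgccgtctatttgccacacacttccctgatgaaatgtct
EIF2AK2: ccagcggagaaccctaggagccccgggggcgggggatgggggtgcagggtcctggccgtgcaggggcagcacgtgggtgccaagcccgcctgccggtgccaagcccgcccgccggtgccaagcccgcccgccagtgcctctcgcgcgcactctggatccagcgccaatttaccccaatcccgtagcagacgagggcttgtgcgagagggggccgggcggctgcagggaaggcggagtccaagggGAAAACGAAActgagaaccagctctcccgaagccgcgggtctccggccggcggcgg
RIGI: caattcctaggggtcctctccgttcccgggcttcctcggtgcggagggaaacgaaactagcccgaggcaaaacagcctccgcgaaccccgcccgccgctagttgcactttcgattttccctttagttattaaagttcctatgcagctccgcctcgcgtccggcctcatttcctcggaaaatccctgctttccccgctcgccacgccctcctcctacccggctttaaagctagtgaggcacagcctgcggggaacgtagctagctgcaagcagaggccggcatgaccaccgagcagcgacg
TICAM1: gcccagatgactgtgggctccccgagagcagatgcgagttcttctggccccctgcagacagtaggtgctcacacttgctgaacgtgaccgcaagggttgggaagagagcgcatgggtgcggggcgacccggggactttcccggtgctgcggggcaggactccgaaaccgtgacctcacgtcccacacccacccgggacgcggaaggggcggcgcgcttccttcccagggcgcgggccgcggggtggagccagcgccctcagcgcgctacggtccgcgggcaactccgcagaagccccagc

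ISRE letters were found in 3 of the 6 promoters. IFIH1 held 3 matches, of which the pair on the opposite strand overlap each other and begin at -159 and -153 from the start site, and the match on its own strand begins at -21. TLR3 held 1 ISRE match, beginning at -4 on the opposite strand, and 2 GAS matches, beginning at -178 and -50. EIF2AK2 held 1 ISRE match, beginning at -6. RIGI, TICAM1 and MAVS held no match to either motif in these windows. Of all 35116 promoters of this length, 3.57% held the ISRE letters and 7.66% the GAS letters. Genes with the ISRE letters were on both sides of the fold, IFIH1 and TLR3 past it and EIF2AK2 within it, whereas TICAM1 was past it without them.

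The cytosolic RNA arm differed between its sensors. IFIH1 (chromosome 2, 163123584 to 163175194, minus strand; all gene positions are GRCh37 from the lifted GENCODE annotation) averaged 0.669 TPM in si-NC against 9.16 TPM in si-FTO, and its log2 ratio was 2.61. RIGI (chromosome 9, 32455300 to 32526206, minus strand) averaged 1.01 TPM in si-NC against 1.82 TPM in si-FTO, and its log2 ratio was 0.49. The order of the sensors was thus opposite in the groups, with 1.51 times as much RIGI as IFIH1 RNA per length in si-NC and 5.04 times as much IFIH1 as RIGI in si-FTO. MAVS (chromosome 20, 3827446 to 3856770, plus strand), the adaptor they share, had nearly the same level in each group, 23.6 TPM in si-NC against 25.8 TPM in si-FTO, with a log2 ratio of 0.12. The MAVS level was 23.3 times that of RIGI in si-NC and 14.2 times in si-FTO.

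The cytosolic DNA arm was near 0 at its sensor in one group. CGAS (chromosome 6, 74123238 to 74162020, minus strand) averaged 0.0107 TPM in si-NC against 14.0 TPM in si-FTO, and its log2 ratio was 3.89. Only 273 of the 20493 genes compared, or 1.33%, had a higher log2 ratio. STING1 (chromosome 5, 138855118 to 138862520, minus strand) averaged 7.11 TPM in si-NC against 36.6 TPM in si-FTO, and its log2 ratio was 2.21. The DNA sensor and its adaptor were thus both higher in si-FTO, but from unlike starting levels, since STING1 was already expressed in si-NC while CGAS was barely detected. The level of STING1 was 664.5 times that of CGAS in si-NC and 2.62 times in si-FTO. The former quotient rests on a mean close to 0 whose read support is unknown.

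In the endosomal arm both members were past the fold. TLR3 (chromosome 4, 186990065 to 187009227, plus strand) averaged 0.112 TPM in si-NC against 2.03 TPM in si-FTO, and its log2 ratio was 1.45. TICAM1 (chromosome 19, 4815944 to 4831724, minus strand) averaged 4.38 TPM in si-NC against 25.6 TPM in si-FTO, and its log2 ratio was 2.31. Even in si-FTO the receptor was a rare transcript, at rank 13457 by level among all genes, whereas the adaptor stood at rank 5767. The adaptor exceeded the receptor 39.2 times in si-NC and 12.6 times in si-FTO.

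PKR and the pair of transcription factors all lay within the fold. EIF2AK2 (chromosome 2, 37326353 to 37384665, minus strand) averaged 15.6 TPM in si-NC against 25.8 TPM in si-FTO, and its log2 ratio was 0.69. IRF7 (chromosome 11, 612553 to 615983, minus strand), which interferon induces and which amplifies the response, averaged 1.47 TPM in si-NC against 3.33 TPM in si-FTO, and its log2 ratio was 0.81. With quantile normalization or a pseudocount of 0.1, IRF7 passed the fold at 1.14 and 1.13. IRF3 (chromosome 19, 50162826 to 50169132, minus strand), which most cells express constitutively, averaged 46.9 TPM in si-NC against 28.4 TPM in si-FTO, and its log2 ratio was -0.71. It was the most abundant of the 10 genes in si-NC and the only one with a lower mean in si-FTO. The IRF3 level was 32.0 times that of IRF7 in si-NC and 8.51 times in si-FTO.

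Ordered by level in si-NC, IRF3, MAVS and EIF2AK2 led, followed by STING1, TICAM1, IRF7, RIGI, IFIH1, TLR3 and CGAS. In si-FTO the order was STING1, IRF3, EIF2AK2, MAVS, TICAM1, CGAS, IFIH1, IRF7, TLR3 and RIGI. EIF2AK2, MAVS and TICAM1 lay between 25.6 and 25.8 TPM there. Without values per library, it cannot be said which neighbours in either order differ beyond their spread. Of the 10 genes, 3 were at or above 10 TPM in si-NC against 6 in si-FTO, and 7 were at or above 1 TPM in si-NC against 10 in si-FTO. Summed over the 10 genes, the level was 101 TPM in si-NC against 172 TPM in si-FTO.

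**Figure D2:**
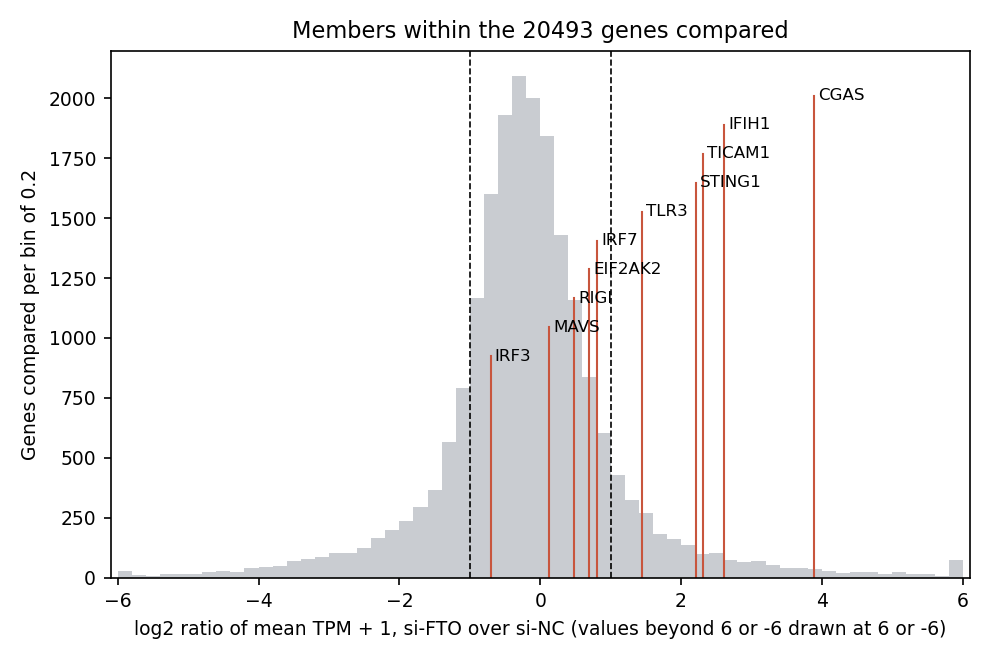
Histogram of the log2 ratio of mean TPM + 1, si-FTO over si-NC, for the 20493 genes compared, with a labelled line at each of the 10 genes (line heights differ only to separate the labels) and dashed lines at a fold of 2. CGAS at 3.89 lies farthest to the right and IRF3 at -0.71 farthest to the left of the 10 genes.

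RIGI, IRF3, EIF2AK2 and CGAS share ground with other annotated genes. RIGI shares its strand with an overlapping annotated gene, ENSG00000288684, for which no value was used here, so the RIGI values may hold reads of both. The start of IRF3 overlaps that of BCL2L12 on the opposite strand, which had 116 TPM in si-NC against 30.0 TPM in si-FTO and was thus lower in the same direction. EIF2AK2 overlaps the end of GPATCH11, at 14.5 and 7.11 TPM, and CGAS overlaps DDX43, at 0.0127 TPM in si-FTO and listed at 0 in the control. The library kit marks strand, but whether strand was used in quantification is not given in the sources used here, so reads of IRF3 and BCL2L12 may be mixed and the IRF3 values are uncertain to that extent. A microRNA gene on the opposite strand within CGAS has no value used here, and the pseudogene ARL14EPP1 within EIF2AK2 was at 0.0878 and 0.0519 TPM.

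The genes around each member give the local background of its ratio. For each member, the 50 compared genes with the nearest starts on its chromosome were taken, a comparison added after the data were seen. Around IFIH1 the median log2 ratio of these neighbours was -0.14, around STING1 it was -0.17, and 0 of 50 had a higher ratio than the member in either place. CGAS stood against a neighbour median of -0.39, with 1 of 50 neighbours at a higher ratio than CGAS. Of these 50, 5 were higher and 15 lower past the fold, beside 11.4% and 17.0% of all genes compared. Around TICAM1 the median was -0.31 and around TLR3 it was 0.08, with 2 and 4 neighbours above the member. Of all genes compared, 3.08% had a higher ratio than IFIH1, 4.06% than STING1 and 1.33% than CGAS. The same share was 3.8% for TICAM1 and 7.39% for TLR3. The neighbour counts of these members lie near those shares and are not read as a trait of their location. IRF3 lay close to its neighbours, which had a median of -0.81, against its own -0.71. Of its neighbours, 22 of 50 had a higher ratio, beside 73.9% of all genes compared. MAVS, at 0.12, also lay near its neighbours' median of 0.04.

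**Figure D3:**
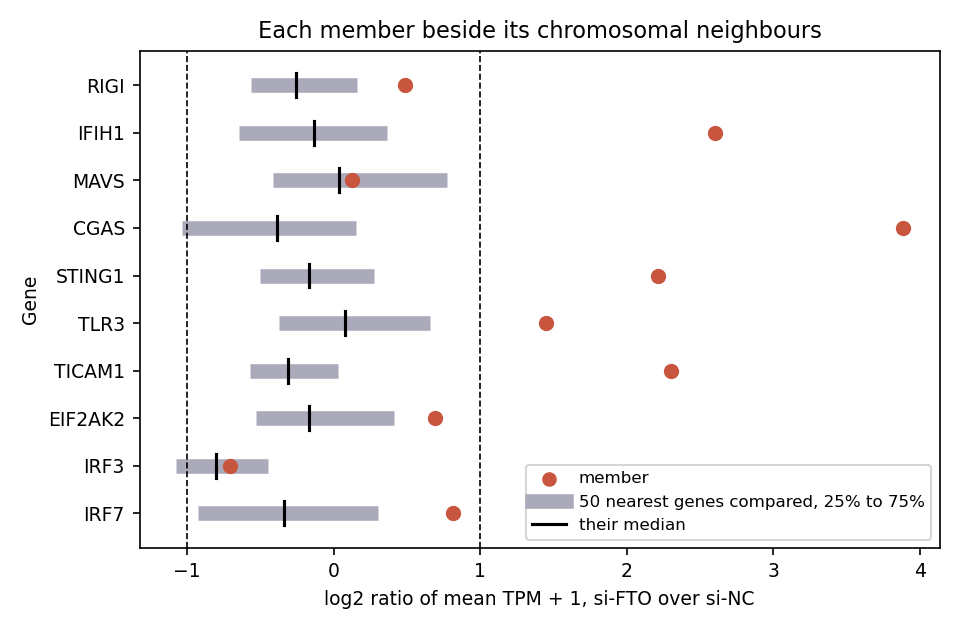
Log2 ratio of each member (points) beside the 50 nearest genes compared on its chromosome (grey bars from the lower to the upper quartile, black line at the median), with dashed lines at a fold of 2. IRF3 and MAVS lie inside the grey bars of their neighbours, and the other 8 members lie to the right of theirs.

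The wider pathway was described with 139 genes in 13 lists by role, all found in the table. Where a pair of levels is given for a gene or list, si-NC comes first and si-FTO after it. Of these, 107 were compared, and 21 were higher and 8 lower past the fold, which is 19.6% and 7.48%, beside 11.4% and 17.0% of all genes compared. Of the 21 higher genes, 8 reached 0.5 TPM only in si-FTO and could count only as higher. Over all 107 genes compared, the median log2 ratio was 0.11. By list, 8 of the 21 were targets of IRF3 and ISGF3 and 4 were RNA sensors.

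The other RNA sensors were mostly higher. Of 9 genes, 5 were compared and 4 were higher past the fold, with a list median of 2.59. OAS1, which makes short adenylate chains when bound to duplex RNA, had 11.9 TPM in si-FTO but was listed at 0 in the control. OAS3, of the same enzyme family, had 2.52 and 20.2 TPM, a log2 ratio of 2.59. OASL had 0.0107 and 10.8 TPM, a log2 ratio of 3.54. Like CGAS, OAS1 and OASL reached 0.5 TPM only in si-FTO. TLR7 and ZBP1 were listed at 0 in both groups.

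The other DNA sensors did not follow CGAS as a group. Of 8 genes, 6 were compared, 1 was higher and 1 lower past the fold, and the median log2 ratio was -0.65. IFI16, a nuclear and cytosolic DNA sensor that works with STING, averaged 0.237 TPM in si-NC against 40.2 TPM in si-FTO, and its log2 ratio was 5.06. It too reached 0.5 TPM only in si-FTO. XRCC6, the Ku70 subunit of the DNA-dependent protein kinase, had 936 and 458 TPM, a log2 ratio of -1.03. PRKDC and XRCC5, the other subunits of this DNA repair kinase, lay within the fold at -0.96 and -0.75. The list median thus rests in good part on this kinase. With median-ratio scaling of the groups XRCC6 lay within the fold at -0.82. With quantile normalization it was past the fold at -1.06, and 2 of the 6 genes compared were lower past it. AIM2, the inflammasome DNA sensor, was listed at 0 in both groups.

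Between the sensors and the transcription factors, most genes lay within the fold. Of the 15 cofactors of RIG-I and MAVS, 14 lay within the fold and only RNF125, a ubiquitin ligase that marks RIG-I for degradation, passed it, with 15.3 TPM in si-NC against 5.45 TPM in si-FTO. PCBP2, which limits MAVS and was the most abundant of that list, had 656 and 1046 TPM. Of the 10 genes of the TBK1 and IKK complexes, 9 lay within the fold, among them TBK1 at 13.3 and 19.7 TPM. TBKBP1, a TBK1-binding scaffold, was lower past it, at 28.6 and 6.26 TPM. The medians of these lists, -0.05 and -0.10, had the other sign under median-ratio scaling, 0.15 and 0.10, so no direction is given for either list.

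Genes that serve the Toll-like receptors included 3 higher ones among 9 compared. UNC93B1, which carries nucleic acid sensing Toll-like receptors to endosomes, had 19.0 and 43.5 TPM, a log2 ratio of 1.15. CNPY3, a chaperone of these receptors, had 38.9 and 87.4 TPM, also 1.15. MYD88, the adaptor of most other Toll-like receptors, had 4.97 and 15.2 TPM, a log2 ratio of 1.44. IRAK1, a kinase downstream of MYD88, was lower past the fold at 262 and 106 TPM. Of the 6 other Toll-like receptors, 0 reached 1 TPM in either group.

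Among the cofactors of cGAS and STING, ENPP1 and TRIM56 stood apart in opposite directions. ENPP1, the membrane enzyme that hydrolyses the cGAS product outside the cell, averaged 21.2 TPM in si-NC against 0.222 TPM in si-FTO, and its log2 ratio was -4.18. It reached 0.5 TPM only in si-NC. TRIM56, a ubiquitin ligase reported to act on this arm, had 2.88 and 11.4 TPM, a log2 ratio of 1.67. The other 7 of the 9 genes lay within the fold. So did all 9 enzymes that limit self nucleic acids, with ADAR, which edits RNA duplexes, at 195 and 191 TPM and TREX1, the cytosolic DNA exonuclease, at 3.75 and 7.42 TPM, though with median-ratio scaling 2 of these enzymes were higher past the fold. Of the 9 PKR partners and genes of the eIF2 arm, 8 lay within the fold, and PPP1R15B, a subunit of the phosphatase that reverses eIF2 phosphorylation, was higher at 53.9 and 125 TPM.

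Of 6 other interferon regulatory factors compared, 3 were higher and 1 lower past the fold. IRF2, known as a counterpart of IRF1 at the same sites, had 4.999 and 21.8 TPM, a log2 ratio of 1.93, and IRF1, an interferon-induced activator, had 5.36 and 14.0 TPM, a log2 ratio of 1.24. IRF5 had 0.107 and 1.505 TPM, and IRF5 reached 0.5 TPM only in si-FTO. IRF8, a factor best known from myeloid cells, had 3.89 TPM in si-NC but was listed at 0 in si-FTO, and so could count only as lower.

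At the output of the pathway, interferon transcripts were at or near 0. Of 20 type I and type III interferon genes, 15 were listed at 0 in both groups, and the highest mean was 0.215 TPM, of IFNE in si-FTO. IFNB1 was at 0.0425 TPM in si-FTO and listed at 0 in the control. The IFNA genes are near-identical copies between which reads can be split, and at unknown depth a value of 0 does not show that a transcript was absent. The interferon receptors and JAK-STAT genes lay within the fold in 10 of 11 cases, while median-ratio scaling put 2 higher past it. IFNGR1, a chain of the interferon gamma receptor, was lower past it, at 49.4 and 18.4 TPM. Of 15 targets of IRF3 and ISGF3 compared, 8 were higher and 1 lower past the fold. Of the 8, 4 (IFIT2, IFIT3, MX1 and CCL5) reached 0.5 TPM only in si-FTO and could count only as higher. With a pseudocount of 0.1, 10 were higher and 3 lower, and the median log2 ratio of the list was 2.47 in place of 1.15. BST2, which tethers virus particles to the membrane, had 1.41 and 439 TPM, ISG15, a ubiquitin-like modifier, had 7.18 and 64.8 TPM, and HERC5, the ligase for ISG15, had 10.4 and 1.25 TPM.

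**Figure D4:**
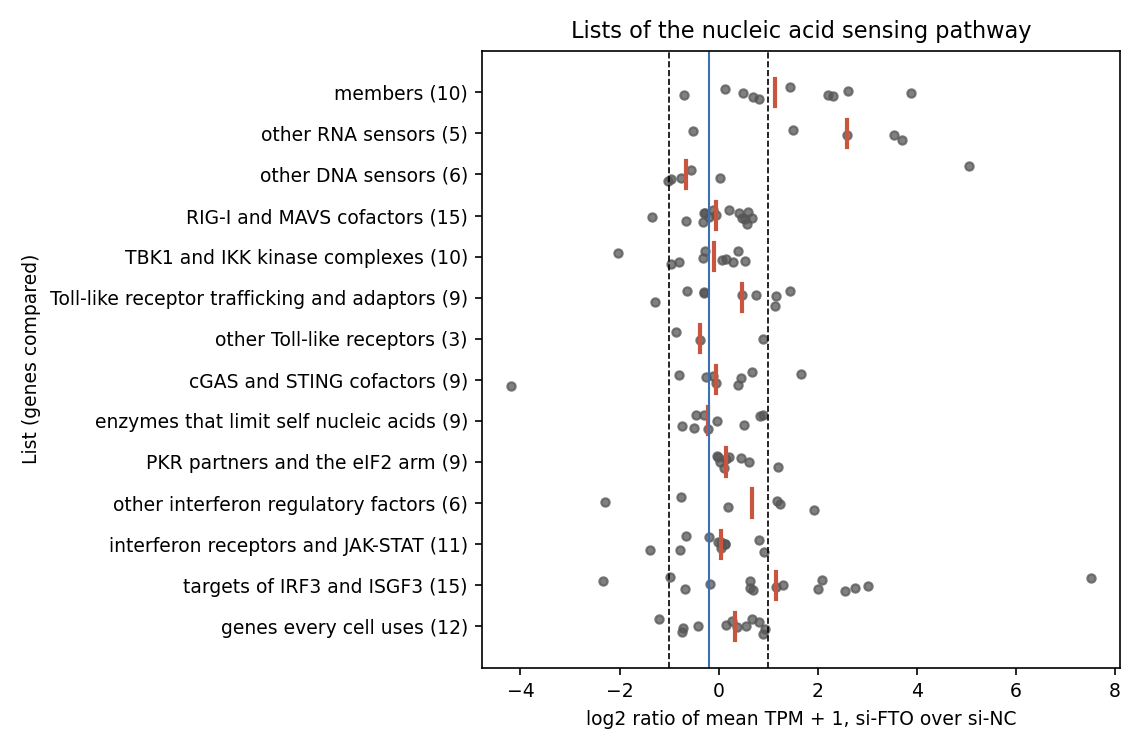
Log2 ratio of mean TPM + 1, si-FTO over si-NC, of each gene compared (dots) in the lists by role, with the list median in red, the median of all genes compared as a blue line at -0.20 and dashed lines at a fold of 2. The 10 members, the other RNA sensors and the targets of IRF3 and ISGF3 have medians above 1, while the cofactor and kinase lists sit around 0.

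Markers of cell identity differed between the groups together with the sensors. Of 18 epithelial markers, 14 were compared, 9 were higher and 2 lower past the fold, and their summed level was 113 TPM in si-NC against 5433 TPM in si-FTO. With a pseudocount of 0.1, 9 of these markers were higher and 4 lower, and the list median log2 ratio was 3.44 in place of 2.31. KRT8, an epithelial keratin and the most abundant of them in si-FTO, had 10.8 and 3139 TPM, KRT18, the most abundant in si-NC, had 52.1 and 1851 TPM, and KRT7 had 253 TPM in si-FTO but was listed at 0 in the control. ELF3, an epithelial transcription factor, had 0.115 and 93.3 TPM. SPINT2, lower past the fold, had 38.2 and 7.99 TPM, a log2 ratio of -2.13. Adhesion genes went both ways. CDH1, at 3.67 and 0.685 TPM, was lower past the fold and EPCAM, at 1.22 and 0.113 TPM, lay within it, whereas the claudins CLDN3, CLDN4 and CLDN7 were higher past it, with log2 ratios of 1.76, 1.59 and 2.86. Of the 9 higher markers, 5 (KRT7, ELF3, CLDN3, CLDN4 and ST14) reached 0.5 TPM only in si-FTO and could count only as higher. KRT19, ESRP1 and GRHL2 were low in both groups and were not compared. KRT19 was listed at 0 in si-NC and had 0.130 TPM in si-FTO. ESRP1 and GRHL2 had 0.0830 and 0.00370 TPM in si-NC and were listed at 0 in si-FTO.

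Several defining markers of the labelled tissue, stomach, were listed at 0. Of 11 gastric markers, 5 were compared, 2 were higher and 2 lower past the fold. GKN1, TFF1 and PGC were listed at 0 in both groups, and the summed level was 59.6 TPM in si-NC against 35.9 TPM in si-FTO. The most abundant in si-NC was GATA4, at 36.96 TPM there but listed at 0 in si-FTO, and in si-FTO it was MUC1, the membrane mucin, which had 1.71 and 31.0 TPM. Of 9 neuronal markers, 6 were compared and 5 were lower past the fold, with a summed level of 448 TPM in si-NC against 6.72 TPM in si-FTO. UCHL1, the most abundant in si-NC, had 303 and 0.0204 TPM, and the neurofilament genes NEFL and NEFM had 62.7 and 49.9 TPM in si-NC but were listed at 0 in si-FTO. Of the 5 lower markers, 4 (UCHL1, NEFL, NEFM and INA) reached 0.5 TPM only in si-NC and could count only as lower, as could GATA4 among the gastric markers, where HNF4A could count only as higher.

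Markers of immune cells, which are rich in these sensors, were low, with 3 at or above 1 TPM in si-NC against 1 in si-FTO. Of 10 immune markers, 4 were compared, 1 was higher and 2 were lower past the fold. PTPRC and MS4A1 were listed at 0 in both groups, CD3E was at 0.0129 TPM in si-NC but listed at 0 in si-FTO, and the most abundant in si-FTO was CD68 with 1.495 and 6.42 TPM. HLA-DRA, at 1.15 TPM in si-NC but listed at 0 in si-FTO, was among the lower ones, at -1.10 in log2 ratio, and could count only as lower. With quantile normalization it lay within the fold at -0.97, and 0 immune markers were lower past it. The summed level of the immune list was 6.33 TPM in si-NC against 7.93 TPM in si-FTO. Of 8 fibroblast markers, 6 were compared, 2 were higher and 2 lower past the fold, and the list summed to 17.0 and 45.6 TPM, led by COL1A1 at 10.3 and 36.4 TPM, with COL1A2 at or near 0 in both. The lower fibroblast markers were COL3A1 and PDGFRA, which reached 0.5 TPM only in si-NC, and PDGFRB, among the higher ones, did so only in si-FTO. With quantile normalization both lay within the fold, at -0.97 and -0.90, and with median-ratio scaling PDGFRA did, at -0.97. Of the 5 endothelial markers 4 were found, with a sum of 0.4199 and 41.0 TPM. CDH5, at 0.00827 and 40.9 TPM, made up most of the sum in si-FTO and could count only as higher, while VWF and TEK, at 0.0537 and 0.0147 TPM there, were near 0. KDR went the other way, with 0.401 TPM in si-NC, most of the sum there, and was listed at 0 in si-FTO. The part of the marker differences in the sensor results was not tested, and FTO depletion and a difference between the cells of the groups, which may be different lines, cannot be told apart from these means. As a reference, 11 of 12 genes that every cell uses lay within the fold, with a median log2 ratio of 0.32. The exception was HPRT1 at -1.20, which median-ratio scaling brought to -0.99, and under that scaling 3 of the 12 were higher past the fold.

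**Figure D5:**
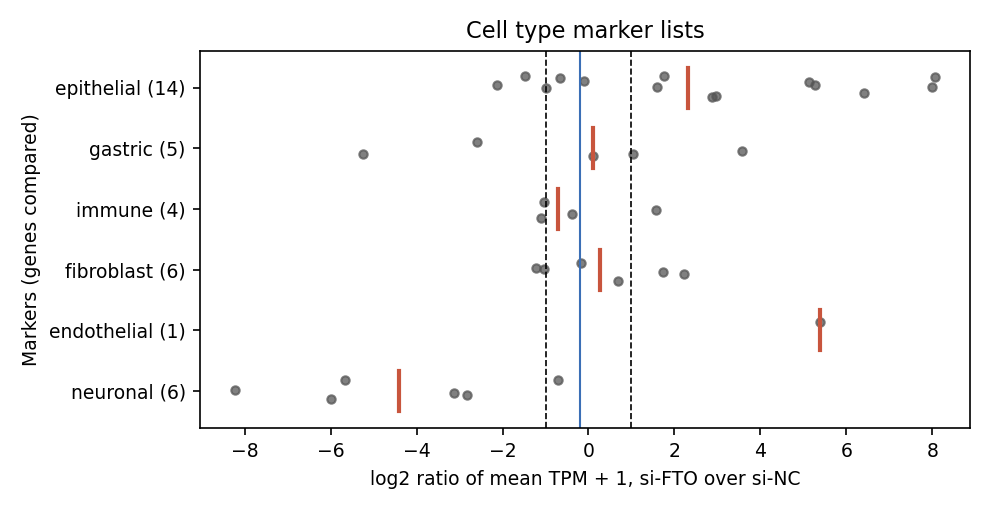
Log2 ratio of mean TPM + 1, si-FTO over si-NC, of each cell type marker compared (dots), with the list median in red, the median of all genes compared as a blue line and dashed lines at a fold of 2. The epithelial markers reach from -2.13 to 8.06 with a median of 2.31, and the neuronal markers from -8.22 to -0.71 with a median of -4.40.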

How the data were processed

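The transcriptomes of AGS cells, 3 si-NC and 3 si-FTO libraries, were sequenced as total RNA on an Illumina HiSeq instrument. According to the methods, the authors mapped reads to hg19 with Bowtie and quantified genes with RSEM, while the submitters' processing notes name HISAT2 and hg19. Versions and annotation are not given in the sources used here. The deposited TPM values are group means, 1 for each gene and group. TPM keeps no depth, so no interval or floor is given. Fold changes, p-values and q-values of the authors' own comparison stand beside the means and in a second table of selected genes. Neither was used.

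The entry 0.0001 TPM was taken as 0 (26830 genes in si-NC, 29534 in si-FTO). Log2 ratios used a pseudocount of 1 TPM, a minimum mean of 0.5 TPM in at least 1 group and a fold of 2. Means allow no test and no exact or permutation p. The settings varied were the pseudocount (0.1), the filter (none, or 5 TPM), median-ratio scaling, quantile normalization, folds of 1.5 and 4, and 0.0001 kept as a value. Symbols matched 55726 of 58174 identifiers. Gene positions come from GRCh37 and promoters from RefSeq (GRCh38.p14).

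The members and lists were chosen with earlier results of these data known. Named are the members, FTO and, from each list, up to 3 genes past the fold with the largest ratio per direction, the most abundant gene and genes at 0 in one group with 10 TPM or more in the other. A gene covered by this rule is left out of the text, and other genes were named after their values were seen. Python 3.11.15, numpy 2.4.6, pandas 2.3.3 and matplotlib 3.10.9 were used, and the calls were tested on simulated data. The simulated differences were put into well-expressed genes without any spread, so this checks the arithmetic only, not the calls of low genes or replicate error.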

Additional observations from a re-analysis of the deposited data

How the results depend on the processing

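No paired analysis was possible because the values are 1 mean for each group, and for the same reason no library could be left out in turn. The spread between libraries and the depth limit every value. The number of members higher past the fold lay between 4 and 7 under the 8 alternatives. A pseudocount of 0.1, quantile normalization and the setting with no pseudocount, no filter and 0.0001 kept as a value each added IRF7, which is above 0 in both groups, so that in the last of these the missing pseudocount added it. A minimum of 5 TPM removed TLR3, RIGI and IRF7 from the comparison. A fold of 4 left CGAS, IFIH1, TICAM1 and STING1, and a fold of 1.5 gave 7 higher members and 1 lower, IRF3. The median log2 ratio of the members moved from 1.13 to 1.74 with a pseudocount of 0.1, to 2.21 at a minimum of 5 TPM, where 7 members were compared, and to 1.77 with 0.0001 kept as a value, no pseudocount and no filter. The stricter filter compares fewer members, the smaller pseudocounts weigh low genes more, and other causes were not tested. None of the 10 members changed sign in any setting. The shift between the groups that median-ratio scaling takes out was -0.21 (log2), and this scaling gave a median of 1.24 for the members and -0.03 for all genes, and quantile normalization gave 1.40 and -0.07. Over all genes compared, 2340 were higher and 3492 lower past the fold, against 1730 and 2254 at a minimum of 5 TPM, 3855 and 6397 at a fold of 1.5, 976 and 1241 at a fold of 4, and 7501 and 12118 with no pseudocount, no filter and 0.0001 kept as a value, where the log2 ratio of CGAS was 10.35 and rests on a mean close to 0. The counts were 3280 and 5147 with a pseudocount of 0.1. They were 2786 and 2887 with median-ratio scaling and 2803 and 2902 with quantile normalization, so most of the excess of lower genes went with the scaling. Dropping the filter alone could not move these counts, since with a pseudocount of 1 TPM no gene under the minimum in both groups can pass a fold of 2. Of the 55 genes named by rule beside the members, 0 past the fold had the other sign in a setting, while ADAR and TYK2, within it, did.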

Other observations

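A shorter motif, AANNGAAA, letters shared by sites of interferon regulatory factors, was searched in the same promoters after the sequences had been seen. It was found in RIGI, IFIH1, TLR3 and EIF2AK2 and not in MAVS or TICAM1, and in 22.8% of all 35116 promoters. Every ISRE match contains it. In RIGI it occurs 3 times, beginning at -202, -143 and -136 from the start site. Of the 12418 compared genes with a promoter in the table, 328 held the longer ISRE letters and had a median log2 ratio of -0.08, against -0.21 for those without. The same medians were -0.19 and -0.21 for the GAS letters.

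STING1 lies between DNAJC18, at 11.4 and 5.12 TPM, and UBE2D2, at 91.6 and 64.1 TPM in si-NC and si-FTO, both lower in si-FTO and DNAJC18 past the fold. IFIH1 has FAP on one side, at 1.23 TPM in si-FTO and listed at 0 in the control, and GCA on the other, at 15.1 and 10.9 TPM. TICAM1 is followed by PLIN3, a lipid droplet protein, at 43.0 and 93.4 TPM. CGAS lies between the pseudogene RPL39P3, at 168 and 81.7 TPM, and MTO1, at 13.8 and 20.5 TPM. Among genes compared these have the nearest starts, and they were named by position after the values were seen.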
